A study of Mus musculus with 30 samples.

Results

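Electrical activity of the heart depends on a small set of cation channel genes, and 8 of them were followed here through pressure overload with loss or gain of Cpt1a, the liver form of an outer-membrane enzyme by which mitochondria take up fatty acids. The members are 2 sodium channel genes (Scn4a, Scn4b), 4 calcium channel genes (Cacna1c, Cacna1g, Cacna1h, Cacnb2) and 2 pacemaker channel genes (Hcn2, Hcn4). They were chosen by gene symbol, and all 8 were found among the 55487 genes of the count table and passed the filter on low counts in both cohorts. Heart tissue was profiled in 30 mouse libraries by poly(A) RNA sequencing 8 weeks after sham surgery or TAC, transverse aortic constriction, in which a clip narrows the aortic arch and overloads the left ventricle.

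The first cohort has 4 libraries in each of 4 groups: Cpt1a floxed mice after sham surgery (floxed sham) or TAC (floxed TAC), and mice with a cardiac-specific Cpt1a knockout after sham surgery (knockout sham) or TAC (knockout TAC). The labels do not name the Cre driver, the series text calls the same mice a knockdown, and the titles of the knockout TAC libraries do not give the genotype, which was taken from their genotype and treatment labels. The second cohort is C57Bl/6 mice given PBS (3 sham, 3 TAC) or AAV9.Cpt1a, a viral vector for Cpt1a that the series text writes as AAV9.cTNTN.Cpt1a and calls cardiac-specific (4 sham, 4 TAC). No empty-vector group is among these samples. The labels give 2 clip sizes without tying them to mice, and they do not state that each library is 1 mouse, so p-values measure the spread between these libraries.

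Voltage-gated sodium channels carry the fast inward current of the action potential upstroke: an alpha subunit forms the pore, and a single-pass beta subunit modifies gating and adhesion. L-type calcium channels (pore subunit encoded by Cacna1c, helper subunit by Cacnb2) admit the calcium that triggers contraction, while T-type channels (Cacna1g, Cacna1h) open at more negative voltages, are abundant in the embryonic heart, and in the adult are found mainly in the conduction system and atria. HCN channels carry the hyperpolarization-activated pacemaker current; Hcn4 dominates in the sinoatrial node and Hcn2 is the form better known from ventricular muscle. Scn4a is best known as the pore subunit of skeletal muscle, and Scn4b encodes a beta subunit found in heart, skeletal muscle and nerve.

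The genes that fell by the largest factors in knockout TAC hearts (Scn4a, Scn4b and Hcn4, values given further on) have start windows of different base composition. The RefSeq windows of 300 bases, from 250 before to 50 after the annotated start, are shown 5′ to 3′ on the gene's strand in the build GRCm38.p6, with every CG dinucleotide in capitals. Hcn2, a member that edgeR called in no comparison, is shown beside them.
Scn4a, chr11:106349341-106349640, minus strand: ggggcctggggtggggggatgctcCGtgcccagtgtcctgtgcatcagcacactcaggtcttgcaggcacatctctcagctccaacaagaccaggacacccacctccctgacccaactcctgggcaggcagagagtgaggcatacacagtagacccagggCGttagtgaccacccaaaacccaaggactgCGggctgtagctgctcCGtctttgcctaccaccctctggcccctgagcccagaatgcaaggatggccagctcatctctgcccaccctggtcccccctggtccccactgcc
Scn4b, chr9:45138374-45138673, plus strand: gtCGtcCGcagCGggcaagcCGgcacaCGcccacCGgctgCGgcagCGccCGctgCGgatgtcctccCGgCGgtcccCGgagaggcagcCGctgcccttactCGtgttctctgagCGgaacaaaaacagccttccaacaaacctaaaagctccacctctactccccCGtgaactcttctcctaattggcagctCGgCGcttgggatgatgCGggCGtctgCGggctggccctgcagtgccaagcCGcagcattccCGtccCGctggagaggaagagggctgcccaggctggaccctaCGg
Hcn4, chr9:58822699-58822998, plus strand: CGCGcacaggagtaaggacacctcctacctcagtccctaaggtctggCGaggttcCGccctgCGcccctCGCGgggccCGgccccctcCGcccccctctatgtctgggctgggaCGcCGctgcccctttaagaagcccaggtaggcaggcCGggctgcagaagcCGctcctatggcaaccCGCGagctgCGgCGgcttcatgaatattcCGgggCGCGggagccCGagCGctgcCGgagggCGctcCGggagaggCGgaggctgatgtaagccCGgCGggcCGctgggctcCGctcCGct
Hcn2, chr10:79716384-79716683, plus strand: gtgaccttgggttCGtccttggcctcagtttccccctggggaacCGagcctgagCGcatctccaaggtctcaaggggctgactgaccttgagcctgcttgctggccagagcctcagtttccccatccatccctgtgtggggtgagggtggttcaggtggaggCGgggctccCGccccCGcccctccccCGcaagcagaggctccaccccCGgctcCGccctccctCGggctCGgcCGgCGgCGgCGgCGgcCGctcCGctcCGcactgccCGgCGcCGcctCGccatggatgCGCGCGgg
The Scn4a window held 4 CG dinucleotides, below the median of 7 over all 32851 windows, whereas Scn4b held 26, Hcn4 31 and Hcn2 26. Their GC content was 63.0% for Scn4a, 66.3% for Scn4b, 71.7% for Hcn4 and 72.3% for Hcn2, beside a median of 52.7%. The 3 falling genes therefore did not share a CG-rich or a CG-poor start window.

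Of the 8 members, 6 had such a window, with 9 windows in all, since Cacna1c has 3 annotated starts and Cacnb2 has 2; Cacna1g and Cacna1h had no entry. The 3 Cacna1c windows differed widely, with 3, 57 and 7 CG dinucleotides, and the 2 of Cacnb2 held 35 and 4. Gene-level counts do not tell which start a heart used. On both strands, the GC box GGGCGG was found in 4 of the 9 windows (35.7% of all windows) and the E-box CANNTG in 6 of 9 (72.3%). None of the 9 held TATAAA (13.6% of all windows), the cyclic AMP element TGACGTCA (1.8%), the GATA letters AGATAA (11.2%), the NKX2-5 letters TCAAGTG (3.1%), the T-box letters AGGTGTGA (1.3%) or the MEF2 motif (3.2%). The RefSeq start of Scn4a lies 3898 bases inside the GENCODE gene, that of Scn4b 229 bases inside, that of Hcn4 463 bases before it and that of Hcn2 at the same base. These letters describe the windows and were not linked to binding.

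Libraries held 14839758 to 22070373 counts, and the 8 genes received between 34 and 9153 counts in a library. Cpt1a itself was at 37.8 to 52.7 CPM (depth-scaled counts, here scaled by edgeR's TMM factors) in floxed sham hearts and 11.1 to 19.6 in knockout TAC hearts. It was 20.3 to 23.7 in 3 knockout sham libraries, but 46.3, in the floxed sham range, in the library labelled knockout sham replicate 2. Floxed TAC libraries had 48.9, 20.3, 16.2 and 34.0, so that replicates 2 and 3 lay at or below the level of the other knockout sham libraries. In the second cohort it was 37.4 to 68.0 in the PBS groups and 44.8 to 88.4 in the AAV9.Cpt1a groups, which overlap. In 7 libraries summed haemoglobin transcripts were at most 51.1 CPM, against at least 294 in the other 23, and the same 7 had mean log2 CPM of 6.46 to 7.79 for immediate early response genes, against 1.84 to 4.87. They are all 4 knockout TAC libraries, floxed TAC replicates 2 and 3, and knockout sham replicate 2, so this split is nearly the same as knockout TAC against the rest, and its part in the results was not tested apart from the values given beside them. Cardiomyocyte markers were abundant in every library (8 genes, summed 27100 to 79400 CPM), and none of the 8 markers was at 0.

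In floxed sham hearts, scaled by depth and exon length (RPKM), the most abundant members were Scn4b at 11.9, Cacna1c at 11.8 and Hcn2 at 10.8. Scn4a followed at 5.52, Cacnb2 at 4.40, Cacna1h at 3.03, Cacna1g at 1.95 and Hcn4 at 1.61. Thus the skeletal muscle pore gene Scn4a was read at a level above that of both T-type genes. In CPM, Scn4a was at 38.9 ± 13.7 (SD, n = 4) in floxed sham hearts. The 12 skeletal muscle markers summed to 18.4 to 21.8 CPM there, with 2 of the 12 at 0 in all libraries. Most of that sum was Cacna1s, at a mean of 15.4 CPM, and the other 11 summed to 2.96 to 7.96. Knockout TAC hearts had the lowest mean of all 8 groups for 7 of the 8 genes, under each of 3 scalings. The exception was Cacna1h, lowest in floxed TAC. How many of all genes have their lowest mean in knockout TAC was not counted, so this is not shown to be particular to the members.

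**Figure D1:**
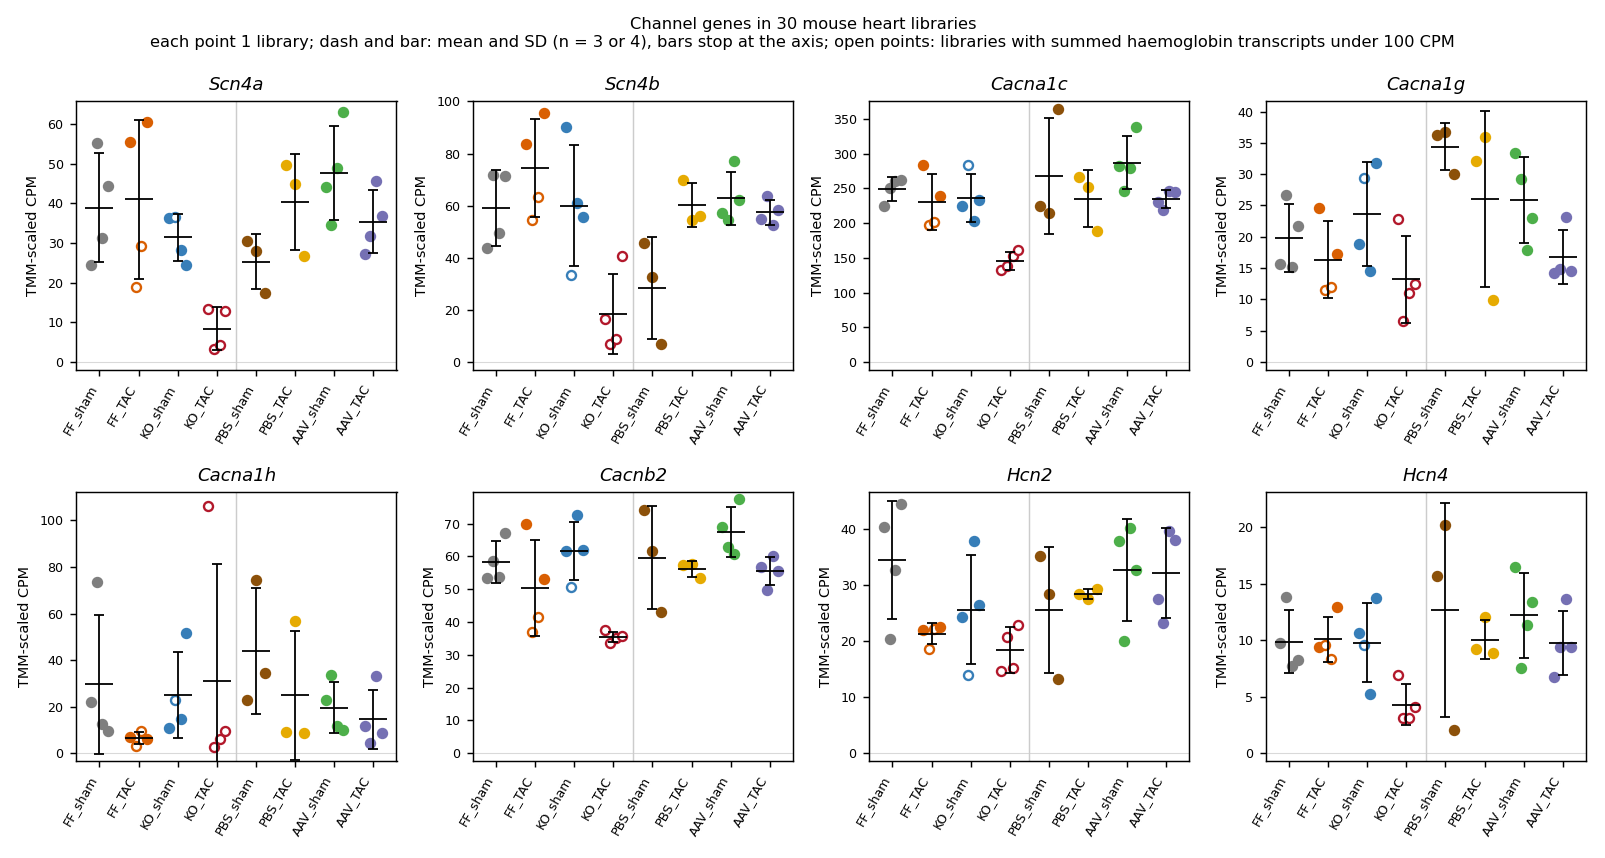
TMM-scaled CPM of the 8 genes (1 panel each, linear axis) in 8 groups: FF, floxed; KO, knockout; PBS and AAV, C57Bl/6 given PBS or AAV9.Cpt1a. Points are libraries, open where haemoglobin is under 100 CPM; knockout TAC (KO_TAC) points lie between 3.30 and 13.3 CPM for Scn4a, below every other library.

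Among the sodium channel genes, Scn4a (chr11:106318592-106353288, minus strand, GRCm38) showed the largest fall in knockout TAC hearts. Its 4 knockout TAC values were 13.3, 3.30, 4.17 and 12.9 CPM. Knockout sham libraries had 36.4, 36.5, 28.1 and 24.5, floxed TAC libraries 55.4, 18.9, 29.1 and 60.4, and floxed sham libraries 24.5, 55.3, 31.3 and 44.4. No library of the other 3 groups reached down to the highest knockout TAC value. Scn4a fell 3.71-fold from knockout sham to knockout TAC (log2 change -1.89, SE 0.45, edgeR adjusted p = 0.00976) and was 4.84-fold lower in knockout TAC than in floxed TAC (-2.27, SE 0.45, edgeR adjusted p = 0.00492). Both comparisons use the same 4 knockout TAC libraries.

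Scn4b (chr9:45138395-45154152, plus strand), the beta subunit gene, moved in the same direction. Its knockout TAC values were 16.6, 7.06, 8.96 and 40.6 CPM, so replicate 4 stood well above the other 3. Knockout sham libraries had 90.0, 33.4, 61.1 and 55.6, floxed TAC libraries 83.7, 54.6, 63.2 and 95.7, and floxed sham libraries 43.9, 71.7, 49.5 and 71.3. Knockout TAC overlapped knockout sham, through that replicate 4 and the haemoglobin-low knockout sham replicate 2, and did not overlap floxed TAC. Scn4b was 3.27-fold lower than in knockout sham (-1.71, SE 0.45, edgeR adjusted p = 0.0146) and 4.05-fold lower than in floxed TAC (-2.02, SE 0.45, edgeR adjusted p = 0.00904). Without knockout TAC replicate 3 the first of these changes was -1.49 with an edgeR adjusted p = 0.0503. Skeletal muscle markers summed to 5.41 to 19.1 CPM in knockout TAC (2 of 12 at 0 in all) and 12.2 to 17.1 in knockout sham (3 of 12 at 0); their part in the sodium channel values was not tested. Most of the knockout sham sum was Cacna1s; without it the other 11 summed to 4.36 to 14.8 in knockout TAC and 3.76 to 5.26 in knockout sham. Of 5 tested, Tnnt3 was called higher (1.46, edgeR adjusted p = 0.00358) and Cacna1s lower.

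Cacna1c (chr6:118587240-119196418, minus strand), which encodes the pore of the cardiac L-type channel, came next to Scn4b in abundance per length in floxed sham hearts. Its values were 132, 138, 152 and 161 CPM in knockout TAC, 225, 284, 203 and 234 in knockout sham, 284, 197, 202 and 239 in floxed TAC, and 225, 250, 261 and 262 in floxed sham. All 4 knockout TAC libraries lay below all 12 others of the cohort. The gene fell 1.62-fold from knockout sham to knockout TAC (-0.70, SE 0.13, edgeR adjusted p = 0.00309) and was 1.58-fold lower than in floxed TAC (-0.66, SE 0.13, edgeR adjusted p = 0.00460).

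Cacnb2 (chr2:14603088-14987908, plus strand) encodes the cytoplasmic subunit that brings the L-type pore to the membrane. Knockout TAC libraries held 37.5, 33.6, 35.2 and 35.7 CPM, knockout sham libraries 61.6, 50.6, 72.5 and 62.0, floxed TAC libraries 70.0, 37.0, 41.5 and 53.1, and floxed sham libraries 53.5, 58.5, 53.8 and 67.2. The knockout TAC values were close together and below every sham value, but the haemoglobin-low floxed TAC replicate 2 lay among them. Cacnb2 fell 1.74-fold from knockout sham to knockout TAC (-0.80, SE 0.17, edgeR adjusted p = 0.00514). The difference between knockout TAC and floxed TAC was -0.51 (SE 0.17, edgeR adjusted p = 0.0537) and did not pass. It passed by DESeq2 (adjusted p = 0.0285), limma-voom (0.0155) and edgeR over all 30 libraries (0.0245), fits that called 19.6%, 38.5% and 14.7% of all genes and 5 members each. In edgeR it also passed without floxed TAC replicate 2 (-0.64, edgeR adjusted p = 0.0156), without floxed TAC replicate 3 (-0.60, 0.0381) and without knockout TAC replicate 1 (-0.54, 0.0442). It did not pass in edgeR with the replicate number as a block (-0.48, adjusted p = 0.0612) or with only the groups compared (-0.52, 0.169). Nor did it pass with a term for the haemoglobin split (-0.21, edgeR adjusted p = 0.340), and in haemoglobin-low libraries alone the change was -0.17. Exons of 3 genes on the opposite strand overlap 968 bases of Cacnb2, but they received 4 counts in all 30 libraries together.

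The pacemaker gene Hcn4 (chr9:58823412-58863175, plus strand) was the least abundant member per length in floxed sham hearts. It had 6.90, 3.15, 3.11 and 4.05 CPM in knockout TAC, 10.6, 9.55, 5.26 and 13.7 in knockout sham, 9.43, 9.59, 8.34 and 12.9 in floxed TAC, and 9.72, 13.8, 7.74 and 8.20 in floxed sham. Only knockout sham replicate 3 lay within the knockout TAC range. Hcn4 fell 2.26-fold from knockout sham to knockout TAC (-1.17, SE 0.31, edgeR adjusted p = 0.0143) and was 2.32-fold lower than in floxed TAC (-1.22, SE 0.31, edgeR adjusted p = 0.0163). The first call was lost without knockout TAC replicate 3 (-1.05, edgeR adjusted p = 0.0519), and the second without that library (-1.09, 0.0604) or without floxed TAC replicate 4 (-1.08, 0.0616).

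Its relative Hcn2 (chr10:79716634-79736108, plus strand) was not called by edgeR in any comparison; limma-voom called it lower in knockout TAC than in knockout sham (-0.76, adjusted p = 0.0268), where that tool called 53.4% of all genes. Its values were 14.7, 20.6, 15.2 and 22.9 CPM in knockout TAC, 24.3, 37.7 and 26.3 in knockout sham replicates 1, 3 and 4 and lower in the haemoglobin-low replicate 2 (25.6 ± 9.71, SD, n = 4), 21.9, 18.5, 22.1 and 22.5 in floxed TAC, and 40.3, 20.4, 32.7 and 44.3 in floxed sham. Floxed TAC was the tightest of these groups and lay at the bottom of the floxed sham range. The change from floxed sham to floxed TAC was -0.69 (SE 0.26, edgeR adjusted p = 0.383).

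In all, 5 of 8 members passed the test for knockout TAC against knockout sham, each of them lower, in a comparison in which 25.8% of 15596 genes were called, 14.3% higher and 11.5% lower. Against floxed TAC, 4 of 8 passed, again all lower, beside 14.3% of all genes, of which 7.53% were higher and 6.80% lower. The median change of the 8 members was -0.81 against knockout sham, where the median of all genes was 0.02, and -0.58 against floxed TAC, where it was 0.04. Ranges did not overlap for 3 members in the first comparison and 4 in the second, each time with knockout TAC below, as they did for 12.0% and 6.76% of all genes tested. Without the library labelled knockout sham replicate 2, edgeR called the same 5 members against knockout sham, from -0.61 for Cacna1c to -1.92 for Scn4b. Without floxed TAC replicate 2, and without replicate 3, it called the same 4 against floxed TAC and Cacnb2.

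The calls moved with the haemoglobin split. With a term for it in the edgeR fit, 0 of 8 members remained called against knockout sham, beside 1.75% of 15596 genes. An unadjusted p under 0.05 was found for 3115 genes and for 4 members. The changes were then -1.52 for Scn4a (adjusted p = 0.121), -1.06 for Scn4b (0.270), -0.66 for Cacna1c (0.0512), -0.39 for Cacnb2 (0.146) and -1.02 for Hcn4 (0.165). Against floxed TAC, 3 members were called with the term, beside 7.23% of all genes. These were Scn4a at -1.91 (edgeR adjusted p = 0.0317), Scn4b at -1.59 (0.0451) and Cacna1c at -0.63 (0.0224). Hcn4 was at -1.11 (edgeR adjusted p = 0.0653) and Cacnb2 at -0.21 (0.340). Each of these changes stayed below 0.

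Values within the haemoglobin-low libraries show the same genes without the split, though with 2 floxed TAC libraries and 1 labelled knockout sham, the one whose Cpt1a was in the floxed sham range. These 3 libraries had 36.5, 18.9 and 29.1 CPM of Scn4a, above the knockout TAC maximum of 13.3. They had 284, 197 and 202 CPM of Cacna1c, above the knockout TAC maximum of 161, and 8.34 to 9.59 CPM of Hcn4, above its maximum of 6.90. For Scn4b the lone library labelled knockout sham (33.4) and for Cacnb2 floxed TAC replicate 2 (37.0) lay inside the knockout TAC range. How many of all genes lie apart in this way was not counted. In a fit on these libraries alone, with that single library assumed to vary like the others, edgeR called 0 members in either comparison, with 4 at an unadjusted p under 0.05 in each. Over all genes that fit called 0.00590% and 0%, so the count of 0 is not particular to the members. The changes against the library labelled knockout sham were -2.13 for Scn4a, -0.88 for Scn4b, -0.97 for Cacna1c, -0.52 for Cacnb2 and -1.16 for Hcn4. Against the 2 floxed TAC libraries they were -1.53 for Scn4a, -1.71 for Scn4b, -0.48 for Cacna1c, -0.17 for Cacnb2 and -1.08 for Hcn4.

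Fibroblast markers (6 genes) summed to 1830 to 2360 CPM in knockout TAC, 881 to 1260 in knockout sham and 970 to 1090 in floxed TAC, without overlap. Cardiomyocyte markers spanned 50300 to 79400 CPM in knockout TAC and 61400 to 64400 in knockout sham, which overlap. Within that list 3 of 8 were called lower against knockout sham, Myh6 (-0.59), Pln (-0.65) and Ryr2 (-0.53), and none higher, with a list median of 0.03. Of 5 endothelial markers 3 were called lower against knockout sham, Kdr (-1.30), Cdh5 (-0.56) and Tie1 (-0.33). Against floxed TAC the same 3 were called lower and Vwf higher (1.04, edgeR adjusted p = 0.0468). Of all genes 25.8% were called against knockout sham and 14.3% against floxed TAC. Transcripts encoded by mitochondrial DNA took 12.1% to 18.7% of counts in knockout TAC and 20.9% to 26.0% in the other 3 groups of the cohort. The part of these shifts in the channel values was not tested, and in bulk heart RNA fewer cells of a type and less RNA per cell cannot be told apart.

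**Figure D2:**
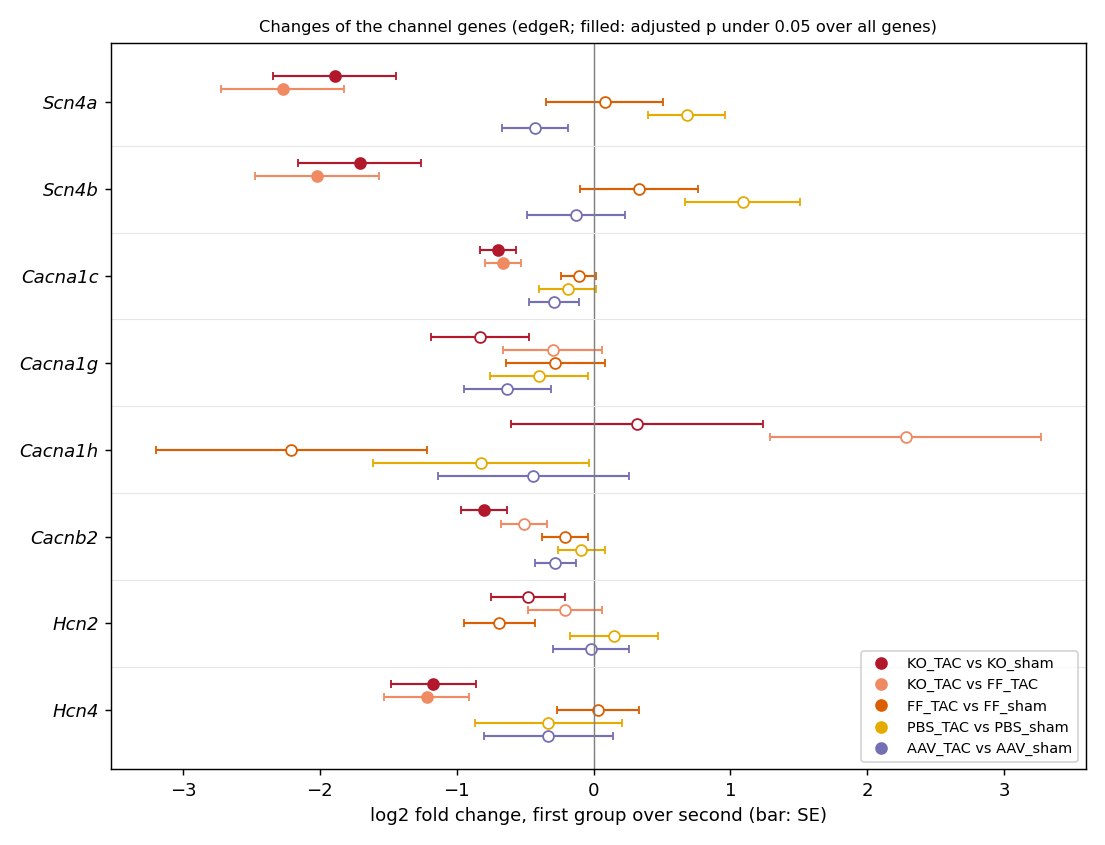
log2 fold change (x axis, bars 1 SE) of the 8 genes in 5 comparisons from edgeR, filled where the adjusted p is under 0.05. Filled points occur only in the 2 comparisons of knockout TAC, from -0.66 for Cacna1c to -2.27 for Scn4a.

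Neither T-type gene was called by edgeR in any comparison with all libraries in and no covariate. Cacna1g (chr11:94408391-94474198, minus strand) had 22.8, 6.46, 11.0 and 12.5 CPM in knockout TAC, 18.9, 29.4, 14.5 and 31.7 in knockout sham, 24.6, 11.5, 12.0 and 17.3 in floxed TAC, and 15.6, 26.7, 15.2 and 21.7 in floxed sham. Knockout TAC replicate 1 lay inside the sham ranges and the other 3 below them. The change against knockout sham was -0.83 (SE 0.36, edgeR adjusted p = 0.0944); without that replicate it was -1.24 (edgeR adjusted p = 0.0113). limma-voom called it with all libraries in (-0.91, adjusted p = 0.0282). Its size was close to those of Cacna1c and Cacnb2, and no difference between these genes was tested.

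Cacna1h (chr17:25374285-25433783, minus strand) varied widely within groups. Knockout TAC libraries held 106, 2.55, 5.95 and 9.35 CPM, knockout sham libraries 11.0, 22.9, 14.6 and 51.6, floxed TAC libraries 6.96, 3.08, 9.45 and 6.13, and floxed sham libraries 22.1, 73.7, 12.7 and 9.62. Every floxed TAC value was below every floxed sham value (-2.21, SE 0.99, edgeR adjusted p = 0.437), the 1 member of 8 without overlap in that comparison, where 3.30% of genes had floxed TAC below without overlap and 0% were called. The difference between knockout TAC and floxed TAC was 2.28 (SE 0.99, edgeR adjusted p = 0.131) and turned to -0.10 without knockout TAC replicate 1. Against knockout sham it was 0.32 (SE 0.92, edgeR adjusted p = 0.819), and without the same replicate it was called at -2.06 (SE 0.73, edgeR adjusted p = 0.0365). Exons of Tpsg1 on the opposite strand overlap 158 bases of Cacna1h and received 33 counts in all libraries.

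The T-type levels went with Myl7, the atrial myosin light chain gene. In the 14 libraries with Myl7 of 21.2 to 3150 CPM, Cacna1h ranged from 6.96 to 106 with a median of 33.5. In the 16 libraries with Myl7 of at most 0.751 CPM, it ranged from 2.55 to 22.1 with a median of 9.24. Cacna1g had medians of 29.4 and 14.6 in the same sets, Hcn4 of 11.7 and 9.04 and Hcn2 of 26.9 and 25.9. Medians were 35.5 and 28.6 for Scn4a, 251 and 222 for Cacna1c, 60.4 and 53.5 for Cacnb2, and 53.4 and 59.8 for Scn4b. The sets were not balanced by group. All PBS sham libraries were in the first, and knockout TAC replicates 2, 3 and 4 in the second. The highest Cacna1h value, 106 in knockout TAC replicate 1, was in the library with the highest Myl7, 3150 CPM. With log2 Myl7 as a covariate, the Cacna1h change was -1.27 between floxed TAC and floxed sham, and 0.67 between knockout TAC and floxed TAC. With the same covariate Cacna1g fell by 0.74 from knockout sham to knockout TAC (edgeR adjusted p = 0.0329), and Cacnb2 was lower in knockout TAC than in floxed TAC (-0.52, edgeR adjusted p = 0.0448); this fit called 27.6% and 19.4% of all genes.

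**Figure D3:**
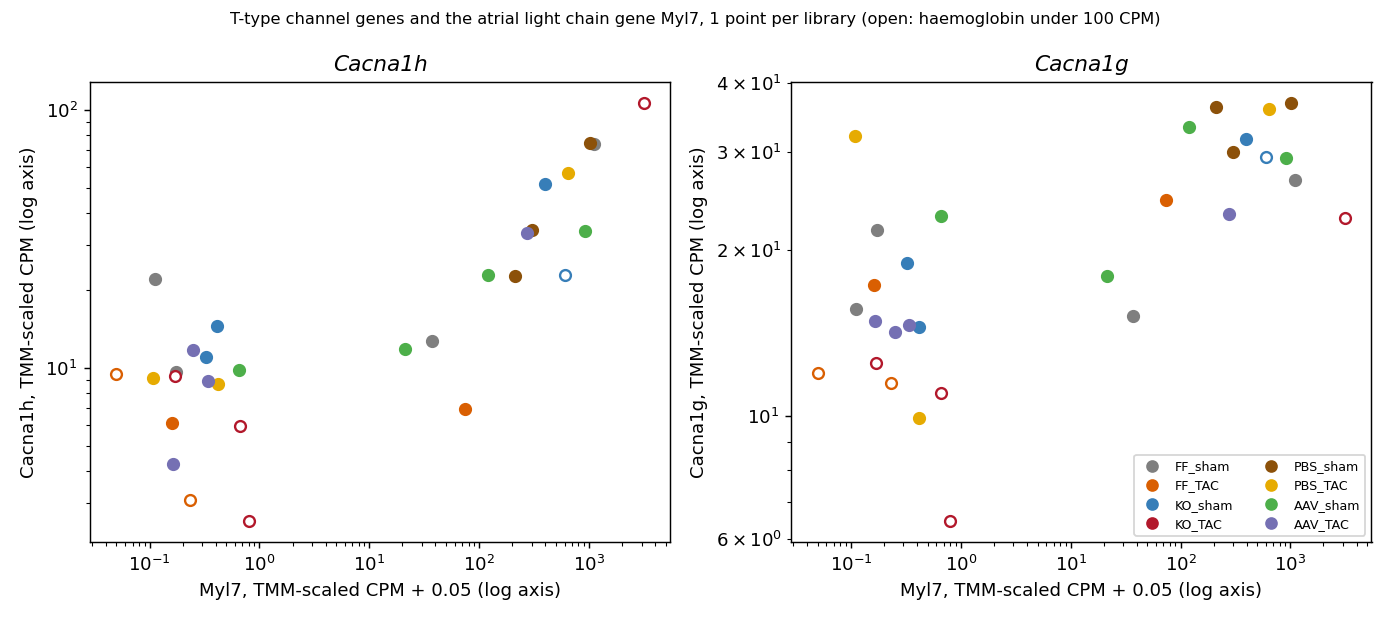
Cacna1h (left) and Cacna1g (right) against Myl7, both axes logarithmic, in TMM-scaled CPM with 0.05 added to Myl7, 1 point per library. Libraries with Myl7 of at least 21.2 CPM had a median Cacna1h of 33.5 CPM, the others 9.24.

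Neither overload in floxed hearts nor the knockout alone gave a called member. From floxed sham to floxed TAC edgeR called 0 of 8 members and 0% of 15596 genes, with 2 members (Cacna1h and Hcn2) and 1733 genes at an unadjusted p under 0.05; DESeq2 and limma-voom also called 0 members, beside 1.08% and 0% of genes. Between knockout sham and floxed sham it called 0 of 8 and 0% of genes, with 0 members and 814 genes at an unadjusted p under 0.05, and again 0 members by DESeq2 and limma-voom, beside 0.0192% and 0.192% of genes. Among haemoglobin-high libraries alone (2 floxed TAC, 4 floxed sham) the overload change was 0.58 for Scn4a (edgeR adjusted p = 0.764) and 0.60 for Scn4b (0.705). All 8 members overlapped between the sham groups, where 6.77% of genes did not, and their median change was -0.05.

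Whether overload acted differently with and without Cpt1a was tested as the difference of the 2 overload changes. edgeR called 0 of 8 members, with 0.0449% of genes called. An unadjusted p under 0.05 was found for 13.1% of genes and for 5 members. These were Scn4a (-1.97, SE 0.62, edgeR adjusted p = 0.191), Scn4b (-2.04, SE 0.62, 0.174), Cacna1c (-0.59, SE 0.18, 0.190), Cacnb2 (-0.59, SE 0.23, 0.296) and Hcn4 (-1.20, SE 0.42, 0.236). DESeq2 called 2 members, Scn4a and Scn4b, beside 2.42% of all genes, and limma-voom with sample weights called 5, beside 18.8%. With knockout TAC replicate 4 left out, edgeR called Scn4b (-2.79, adjusted p = 0.0229). The difference between genotypes therefore passed or missed the threshold with the test used.

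In the C57Bl/6 cohort edgeR called no member with all libraries in, and Scn4a and Scn4b were the 2 members with an unadjusted p under 0.05 in any comparison. Scn4a was at 30.6, 27.9 and 17.4 CPM in PBS sham, 49.6, 44.9 and 26.6 in PBS TAC, 44.2, 34.6, 48.9 and 62.9 in AAV9.Cpt1a sham, and 27.2, 31.7, 45.7 and 36.7 in AAV9.Cpt1a TAC. Scn4b was at 45.6, 32.6 and 6.98 in PBS sham, 69.9, 54.3 and 56.2 in PBS TAC, 57.2, 54.5, 77.1 and 62.3 in AAV9.Cpt1a sham, and 55.0, 63.7, 52.5 and 58.5 in AAV9.Cpt1a TAC. PBS sham lay lowest for both genes, below all AAV9.Cpt1a sham libraries.

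From PBS sham to PBS TAC edgeR called 0 of 8 members and 0.0318% of 15745 genes. An unadjusted p under 0.05 was found for 18.5% of genes and for 2 members. These were Scn4a (0.68, SE 0.28, edgeR adjusted p = 0.235) and Scn4b (1.09, SE 0.42, 0.216). Scn4b was the 1 member without overlap, beside 8.11% of genes with PBS TAC above. limma-voom called Scn4b (and 1.60% of genes) and DESeq2 called 0 (2.35%), and without PBS sham replicate 1 edgeR called Scn4b (1.62, adjusted p = 0.0404). Between AAV9.Cpt1a sham and PBS sham edgeR called 0 of 8 and 0.0127% of genes, with 2 members and 20.7% of genes at an unadjusted p under 0.05. Scn4a (0.92, SE 0.27, edgeR adjusted p = 0.148) and Scn4b (1.15, SE 0.40, 0.176) did not overlap between these groups, as 5.53% of genes did not with the vector group above. DESeq2 called Scn4a (and 2.37% of genes) and limma-voom 0 (0.445%). Without PBS sham replicate 1 edgeR called both, Scn4a at 1.09 (adjusted p = 0.0350) and Scn4b at 1.68 (0.0264), and without PBS sham replicate 3 the changes were 0.70 and 0.68.

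PBS sham replicate 3 stood apart. It had 6.98 CPM of Scn4b and 2.04 of Hcn4, where the other PBS sham libraries had 15.7 and 20.2 CPM of Hcn4, and it had the highest Cacna1c of all libraries, 365 CPM. Smooth muscle markers summed to 2120 CPM in it, the highest of its group, whose median was 488, and cardiomyocyte markers to 27100, the lowest, with a group median of 56500. The part of this tissue makeup in the PBS comparisons was not tested; without the library the Scn4b change from PBS sham to PBS TAC was 0.62 (edgeR adjusted p = 0.125).

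With the vector, overload called 0 of 8 members by edgeR, DESeq2 and limma-voom, with 0.00635%, 0.743% and 2.33% of genes called. In edgeR 0 members and 7.05% of genes had an unadjusted p under 0.05. All 8 fitted changes were below 0, with a median of -0.31, and for 2 members, Cacna1c and Cacnb2, every AAV9.Cpt1a TAC library was below every AAV9.Cpt1a sham library, as for 5.79% of genes. Cacna1c was 235 ± 13.0 CPM after TAC and 287 ± 38.1 after sham surgery (SD, n = 4 each), and Cacnb2 55.6 ± 4.29 and 67.5 ± 7.57. Between AAV9.Cpt1a TAC and PBS TAC 0 members were called by the 3 tools. Of all genes edgeR called 0.0381%, DESeq2 0.222% and limma-voom 0.616%. In edgeR 0 members and 3.19% of genes had an unadjusted p under 0.05. All 8 members overlapped, where 8.47% of genes did not. For the difference of the overload changes with and without vector, 0 members were called by the 3 tools, with 0.00635%, 0.102% and 0.0826% of genes called by edgeR, DESeq2 and limma-voom. Scn4a (-1.11, SE 0.37, edgeR adjusted p = 0.688) and Scn4b (-1.22, SE 0.56, 0.688) were the 2 with an unadjusted p under 0.05, beside 6.95% of genes.

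Hcn2 and Hcn4 also overlapped among all 4 groups of this cohort. Hcn2 had group means of 25.5 to 32.6 CPM and Hcn4 of 9.77 to 12.6, each with PBS sham the widest group. Cacna1g had its highest mean in PBS sham, 34.4 ± 3.75 CPM (SD, n = 3), and 16.7 ± 4.32 (SD, n = 4) in AAV9.Cpt1a TAC. Cacna1h ran from 43.8 ± 27.1 (SD, n = 3) to 14.5 ± 12.8 (SD, n = 4) in the same 2 groups. With groups of a cohort ordered by each gene's means, neighbouring ranges were apart for Scn4a, Scn4b and Cacna1c at the step to knockout TAC. They were also apart for Cacna1h at the step down to floxed TAC and for Scn4b at the step down to PBS sham. All other neighbours overlapped. How many of all genes have neighbouring groups apart in this way was not counted.

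Other subunits of the same channels did not all fall. Of 11 further sodium channel subunit genes, 7 were tested, and 1, Scn3b, was called higher in knockout TAC than in knockout sham and than in floxed TAC. In these comparisons 25.8% and 14.3% of all genes were called. Scn3b, a beta subunit gene, had 2.17, 2.18, 1.89 and 2.50 CPM in knockout TAC, 0.993 to 1.52 in knockout sham and 0.603 to 0.987 in floxed TAC. It rose by 0.92 (SE 0.22, edgeR adjusted p = 0.00991) and was higher than in floxed TAC by 1.54 (SE 0.23, edgeR adjusted p = 0.00113). So in knockout TAC hearts the beta subunit gene Scn3b was called higher than in floxed TAC and Scn4b, another, lower. Neuron and glia markers (8 genes) summed to 45.1 to 125 CPM in knockout TAC. They summed to 21.2 to 30.9 in knockout sham and 13.5 to 22.7 in floxed TAC. Of 4 tested, 1 was called in each comparison, Uchl1, higher by 2.65 and by 2.58. The list median was -0.49 against knockout sham and 0.35 against floxed TAC. The part of these markers in the Scn3b values was not tested.

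Of 19 further calcium channel subunit genes, 11 were tested and 5 were called in each comparison of knockout TAC, 2 higher and 3 lower. Of all genes 25.8% were called against knockout sham and 14.3% against floxed TAC. The higher ones were Cacnb1 and Cacnb3, which encode other beta subunits. Cacnb1 had 14.9 to 20.9 CPM in knockout TAC and 7.84 to 11.7 in knockout sham (0.84, SE 0.16, edgeR adjusted p = 0.00327). Cacnb3 had 6.08 to 9.71 and 4.42 to 5.41 (0.73, SE 0.17, edgeR adjusted p = 0.00952). Thus Cacnb2 fell against knockout sham while Cacnb1 and Cacnb3 rose.

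The 3 lower ones were Cacna1s, Cacna2d1 and Cacng6. Cacna1s, the skeletal muscle L-type pore gene and also on the skeletal muscle list, had 4.33, 1.05, 2.17 and 8.10 CPM in knockout TAC and 8.11 to 12.6 in knockout sham (-1.27, SE 0.39, edgeR adjusted p = 0.0285). Cacna2d1, the outer subunit gene that helps carry the pore to the surface, was 87.2 ± 8.29 CPM in knockout TAC and 113 ± 7.77 in knockout sham (SD, n = 4 each; -0.37, SE 0.11, edgeR adjusted p = 0.0294). Cacng6, a gamma subunit gene, was at 0.394, 0, 0.167 and 0.119 CPM in knockout TAC and 1.36 to 6.04 in knockout sham (edgeR adjusted p = 0.00416). Exons of Gm37759 on the opposite strand overlap 1309 of the 6550 exon bases of Cacna1s and received 29 counts in all libraries; those of Gm11629 overlap 80 bases of Cacnb1 and received 24.

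**Figure D4:**
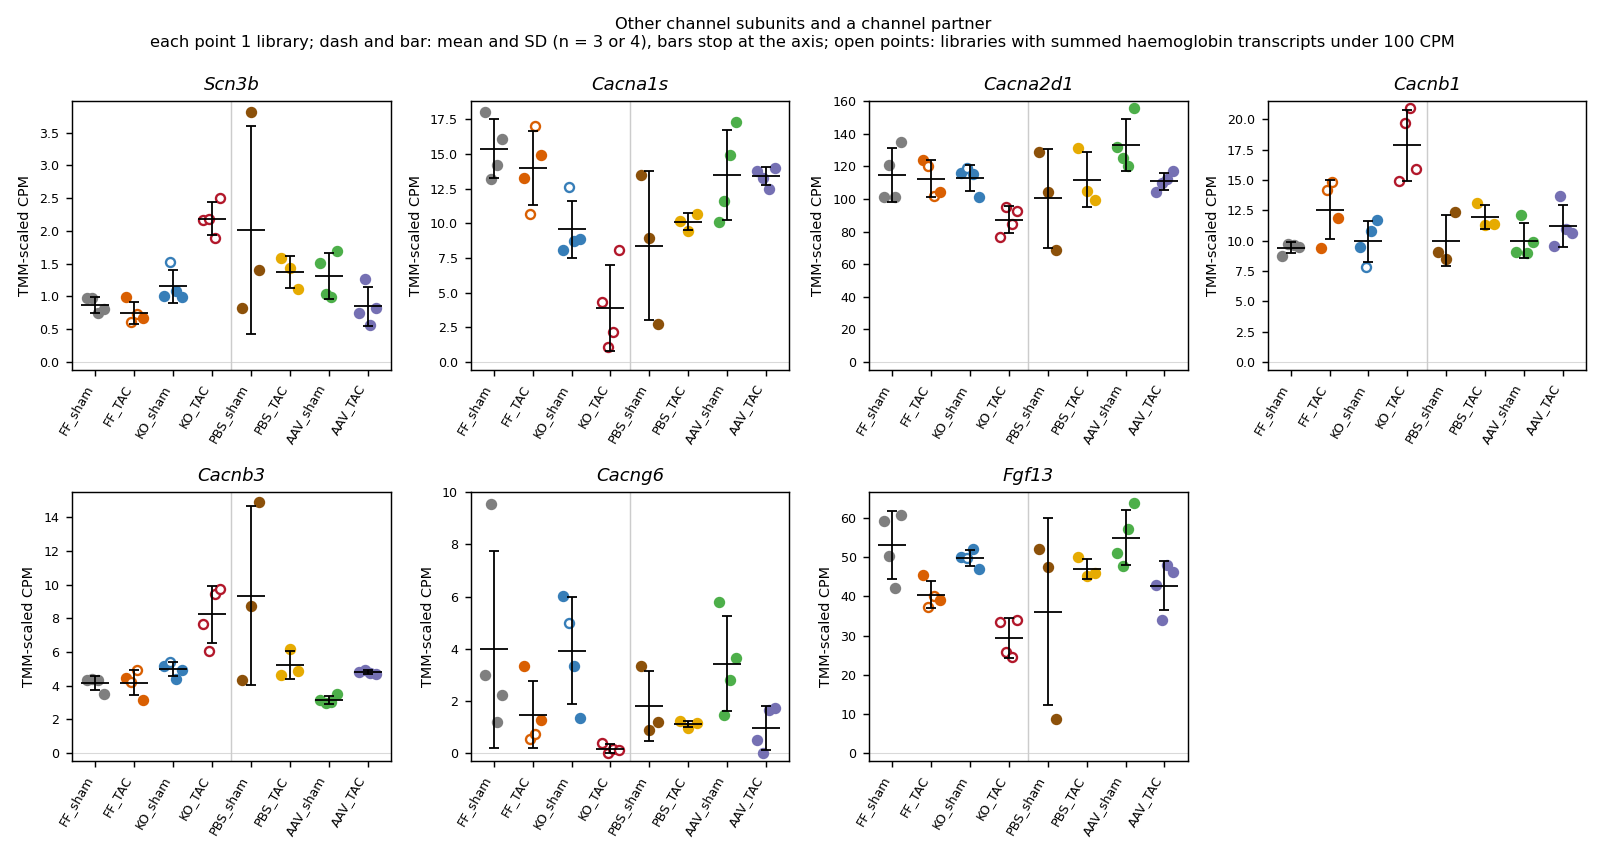
TMM-scaled CPM of 6 other channel subunit genes and of Fgf13 (1 panel each, linear axis) in the 8 groups, points and bars as for the members. In knockout TAC (KO_TAC), Scn3b lies at 1.89 to 2.50 CPM, above the other floxed-cohort libraries, and Cacng6 at 0 to 0.394, below them.

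Of 7 further pacemaker channel genes and regulators, 5 were tested and edgeR called 0 in both comparisons. An unadjusted p under 0.05 was found for 1 of them against knockout sham (40.6% of all genes) and 2 against floxed TAC (31.1%). DESeq2 called 0 and 1, beside 30.9% and 19.6% of all genes. For limma-voom the counts were 3 and 1, beside 53.4% and 38.5%. Of 22 channel partner genes 18 were tested, and 3 were called against knockout sham, beside 25.8% of all genes. Fgf13, an intracellular partner of sodium channels, fell from 47.1 to 52.1 CPM in knockout sham to 24.5 to 33.9 in knockout TAC (-0.76, SE 0.13, edgeR adjusted p = 0.00229). Calm2 (0.40), a calmodulin gene, was higher and Ank2 (-0.33), which encodes the anchoring protein ankyrin-B, lower. Against floxed TAC 3 were called, beside 14.3% of all genes: Fgf13 (-0.46) and Rem1 (-0.57), a GTPase that restrains L-type channels, lower, and Calm2 (0.38) higher. Among 13 transcription factors known to bind cardiac channel genes, 12 were tested. Against knockout sham 2 were called, Nkx2-5 higher (0.62) and Mef2a lower (-0.62), beside 25.8% of all genes. Against floxed TAC edgeR called 0, beside 14.3% of all genes. There 5 had an unadjusted p under 0.05, beside 31.1% of all genes. DESeq2 called 2 and limma-voom 3 in that comparison, beside 19.6% and 38.5% of all genes. Reads of Mef2a and its opposite-strand neighbour Lysmd4 may be mixed, since the counting strand is not given in the sources used here.

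These lists also moved with the haemoglobin split. With its term in the edgeR fit, 0 other sodium, 0 other calcium and 1 partner gene were called against knockout sham, beside 1.75% of all genes. Against floxed TAC 1, 2 and 0 were called, beside 7.23% of all genes. Those called were Fgf13 in the first comparison (-0.70, adjusted p = 0.0479) and Scn3b (1.47, 0.00829), Cacna1s (-1.94, 0.0177) and Cacnb3 (0.87, 0.0172) in the second. Scn3b, Cacnb1, Cacnb3, Cacng6, Fgf13 and Mef2a remained called against knockout sham when any 1 of the 8 libraries was left out. Cacna1s and Cacna2d1 remained called in 4 of these 8 fits, Calm2 in 7, and Ank2 and Nkx2-5 in 3. Against floxed TAC, Scn3b, Cacna1s and Cacnb3 remained called in all 8 such fits, Rem1 in 5, Cacnb1, Fgf13 and Calm2 in 4, and Cacng6 and Cacna2d1 in 3.

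The members went together to different degrees over the 16 floxed-cohort libraries. Pearson's r of log2 CPM, given as a description since libraries share groups and the haemoglobin split, was 0.92 for Scn4a with Scn4b, 0.86 for Scn4a with Cacna1c and 0.79 for Cacna1c with Cacnb2. Over the 14 libraries of the other cohort the same pairs had 0.73, 0.20 and 0.01. Cacna1g with Cacna1h gave 0.72 in both cohorts, and Hcn2 with Hcn4 gave 0.14 and 0.79.

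Of 10538 genes whose mean was 5 CPM or more, those closest in pattern to Scn4a over the 16 libraries were Dnmt3a (0.98), Ptpn3 (0.97) and Pskh1 (0.97), with -0.19, 0.85 and 0.44 over the 14. For Scn4b they were Asap3 (0.95, then -0.72), Map2k4 (0.95, 0.96) and Ccng1 (0.94, 0.97). For Cacna1c they were Rtel1 (0.97, 0.59), Efnb3 (0.94, -0.07) and Slc38a3 (0.94, 0.78). Likeness in the first cohort thus carried over for some of these genes and turned sign for others. PBS sham replicate 3 had the lowest Scn4b (6.98 CPM) and the lowest Hcn4 (2.04 CPM) of the C57Bl/6 cohort. Its weight in the correlations over the 14 libraries was not tested.

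For Cacna1g the nearest were Thada (0.92, 0.08), Mllt10 (0.92, 0.38) and Mbtps1 (0.92, 0.73), and for Cacna1h Lrrn2 (0.94, 0.46), Lmntd1 (0.94, 0.92) and Usp11 (0.92, 0.91). For Cacnb2 they were Entpd5 (0.96, 0.79), Eya3 (0.94, 0.70) and Zfpm2 (0.94, 0.79). Hcn2 had the loosest neighbours, Mrps2 (0.84, 0.80), Dennd1b (0.84, 0.50) and Zfp768 (0.84, 0.76), and Hcn4 had Mtfmt (0.92, -0.83), Mme (0.89, 0.55) and Tmem86a (0.89, 0.66).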

How the data were processed

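RNA of 30 mouse heart libraries was measured. Per the submitters' processing notes, the tools were HISAT2 2.1.0, featureCounts and Subread 1.5.1 with the build GRCm38; the annotation and strand setting are not given in the sources used here. Per the labels, the library kit marks strand. The deposited values are raw gene counts, made by the authors. Symbols came from GENCODE mouse release 21; rows without one hold 0.0192% of counts. Groups came from genotype and treatment labels. Each cohort was fitted by edgeR 4.0.16 quasi-likelihood (R 4.3.3; TMM, filterByExpr, 1 mean per group, Benjamini-Hochberg over all genes tested, two-sided); a gene is called at adjusted p under 0.05. CPM use TMM-scaled totals, so cohorts were scaled apart, and RPKM use the union of exons. All members were named in every comparison, with the 3 genes of highest correlation each. The rule for the other lists named at most 4 called genes per list; Cacna2d1 was named beyond it after their values were seen. Some genes of these lists are not reported here and were left out of the lists' counts. Members and lists were chosen with earlier results of these data known. Alternatives used DESeq2 1.42.0, limma 3.58.1 voom, other scalings, filters and library sets. The script was tested on simulated data. The 42 within-group library pairs differed by more than sampling noise (chi-square per degree of freedom 6.29 to 234). Promoter sequences are from RefSeq.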

Additional observations from a re-analysis of the deposited data

Results flagged for a closer look

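In 48 sets of 4 libraries (a member gene in a group), 3 values lay far from the other libraries of their group, and chance alone gives about 1 in 20. Cacna1h was 106 CPM in knockout TAC replicate 1, where the nearest library had 9.35; the same library had the highest Myl7 of all. Cacna1g was 23.2 CPM in AAV9.Cpt1a TAC replicate 3, where the nearest had 14.9; this library had 275 CPM of Myl7 and the others of its group at most 0.288. Hcn2 was 18.5 CPM in floxed TAC replicate 2, one of the haemoglobin-low libraries, where the nearest had 21.9.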

How the results depend on the processing

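Against knockout sham, 5 of 8 members were called in knockout TAC; the count was 0 with a haemoglobin term, 0 in haemoglobin-low libraries alone, 3 without knockout TAC replicate 3 and 7 without knockout TAC replicate 1 (range 3 to 7 with 1 library left out). Against floxed TAC it was 4, and 1 with only the groups compared in the fit, 0 in haemoglobin-low libraries alone, and 3 to 5 with 1 library left out. For the genotype by overload difference it was 0, and 2 by DESeq2, 5 by limma-voom, and 0 to 1 with 1 library left out. For PBS TAC against PBS sham it was 0, with 1 by limma-voom and 0 to 1 leaving 1 library out; for AAV9.Cpt1a sham against PBS sham it was 0, with 1 by DESeq2 and 0 to 2 leaving 1 library out. The cause was not tested. The remaining 5 comparisons kept 0 under every alternative run. Over 25 member changes with an unadjusted p under 0.05 and 472 alternative values, 425 kept direction and side of the threshold, 23 passed it newly, 23 lost it and 1 turned: Cacna1h, knockout TAC against floxed TAC, at -0.10 without knockout TAC replicate 1 (range -0.10 to 2.66 with 1 library left out). Outside these, Cacna1h against knockout sham went from 0.32 to -2.06 without the same library. For the 20 calls in other lists, examined the same way as alternatives chosen after seeing the data, 255 of 359 values stayed called, 104 did not, and none of them turned. Of 64 group levels, 63 moved by less than 1 SD without TMM scaling; Cacna1g in PBS sham moved from 34.4 to 38.4 CPM. With the replicate number as a block, calls of members stayed at 5 and 4 and at 0 elsewhere. Partners against knockout sham went from 3 to 6 of 18, beside 24.9% of all genes. Same-numbered libraries had a median correlation of deviations of 0.01 (-0.37 to 0.45) in the floxed and 0.06 (-0.41 to 0.40) in the C57Bl/6 cohort, and 4 of 16 and 5 of 14 libraries were nearest their own number, so the numbers were not treated as pairs. Members had as few as 34 counts in a library, and with 4 libraries a group the SE of an overload change (log2, floxed mice) ran from 0.13 for Cacna1c to 0.99 for Cacna1h.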
